A study of Mus musculus with 32 samples.

Results

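In late-stage SOD1G93A spinal cord, transcripts of 9 genes that mark successive steps of the oligodendrocyte lineage were compared between mice with and without LAG-3, an inhibitory immune checkpoint receptor. The genes were taken by symbol from the cord table: Mbp, Mobp, Mag, Mog, Cnp and Cldn11 of mature myelin, the transcription factors Myrf and Olig2, and the progenitor receptor Pdgfra. They are 9 of the 74021 genes of that table, and all 9 were among the 17702 genes with enough counts to be tested. The cord libraries are 6 of the 32 RNA-seq libraries of the study, the other 26 being sorted microglia.

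The 6 libraries came from bulk lumbar spinal cord at postnatal day 140 (P140), with 3 libraries from SOD1G93A/LAG-3+/+ mice and 3 from SOD1G93A/LAG-3-/- littermates. Both groups carried the human mutant SOD1 transgene of the G93A line, a model of inherited amyotrophic lateral sclerosis (ALS), and no wild-type cord library was analysed here, so no value below says where a level lies relative to a healthy cord. The LAG-3-/- mice carried a targeted disruption of Lag3 in every cell, not only in microglia. Lag3 was measured at 74.5, 43.4 and 61.4 CPM, counts scaled to a common normalized library size, in the LAG-3+/+ libraries and at 5.72, 5.60 and 5.50 CPM in the LAG-3-/- libraries, so the genotype labels and this gene went together.

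Oligodendrocytes wrap axons in compacted layers of membrane. They arise from progenitors that carry the growth factor receptor PDGFRα, pass through a short-lived newly formed stage, and then express the myelin proteins. Olig2 is present throughout the lineage, SOX10 acts with it, and MYRF is the factor that switches on myelin genes once a cell leaves the cell cycle. In SOD1G93A cord, oligodendrocytes are known to degenerate and to be replaced by newly differentiated cells. In bulk tissue, fewer cells of a type and less RNA per cell cannot be told apart.

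The sequences just before the canonical transcripts of some of these genes were set beside their levels. Mobp, Cnp and Mog were chosen because they rose in LAG-3-/- cord, and Pdgfra because it fell. The stretch of Mbp, which rose as well, is not printed. Each stretch is from GRCm39 with GENCODE annotation and begins 250 bases before the start of the canonical transcript. It ends at that start, or earlier where an annotated exon of the same strand begins inside the window. The Cnp and Mog stretches lie directly before the annotated gene. Those of Mobp and Pdgfra lie inside it, as these genes begin further upstream, at 119973770 and 75311994. All are printed 5′ to 3′ on the strand of the gene, with capitals marking the words CTGGCAC or CTGGTAC, bound by MYRF, and ACAAAG or ACAATG, bound by SOX factors, on either strand. The Mobp stretch is chr9:119978493-119978683 on the plus strand, that of Cnp chr11:100465480-100465729 on the plus strand, that of Mog chr17:37334351-37334600 on the minus strand and that of Pdgfra chr5:75312672-75312833 on the plus strand.
Mobp: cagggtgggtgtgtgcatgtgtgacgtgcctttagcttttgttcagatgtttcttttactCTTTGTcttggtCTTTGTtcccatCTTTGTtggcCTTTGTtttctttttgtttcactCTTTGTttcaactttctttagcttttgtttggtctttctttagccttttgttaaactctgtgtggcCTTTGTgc
Cnp: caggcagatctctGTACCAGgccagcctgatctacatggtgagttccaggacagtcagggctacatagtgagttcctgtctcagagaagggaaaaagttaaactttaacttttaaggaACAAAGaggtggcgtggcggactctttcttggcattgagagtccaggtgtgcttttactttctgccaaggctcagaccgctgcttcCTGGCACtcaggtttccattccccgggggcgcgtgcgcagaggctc
Mog: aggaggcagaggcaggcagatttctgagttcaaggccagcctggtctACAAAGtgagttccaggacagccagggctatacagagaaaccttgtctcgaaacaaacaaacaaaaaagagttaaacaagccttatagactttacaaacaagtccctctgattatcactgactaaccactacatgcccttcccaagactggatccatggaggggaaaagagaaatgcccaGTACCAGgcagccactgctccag
Pdgfra: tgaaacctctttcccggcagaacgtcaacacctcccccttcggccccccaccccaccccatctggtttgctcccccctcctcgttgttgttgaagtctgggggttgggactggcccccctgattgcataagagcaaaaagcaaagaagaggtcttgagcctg

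Annotated exons fall within the windows of Mbp, Mag, Mobp and Pdgfra. These windows and that of Olig2 lie inside the annotated gene rather than before it. Over the full 250 bases, Mobp held 7 SOX words and no MYRF word. Cnp held 2 MYRF words and 1 SOX word. Mog and Myrf itself each held 1 of either kind, and Mbp held 3 SOX words. The windows of Mag, Cldn11, Olig2 and Pdgfra held neither word. Thus 3 of the 9 windows held a MYRF word and 5 a SOX word, beside 5.8% and 23.7% of the same windows of 21757 protein-coding genes. Repeat sequence was not masked, in these windows or in those of all genes. A match of letters describes the window and does not show that a factor is bound there.

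Among the 6 mature myelin genes, 4 were more abundant in LAG-3-/- cord, and Mbp and Mobp rose by the largest amounts. Of the other 3 genes, Pdgfra fell. Mag, Cldn11, Myrf and Olig2 did not pass the test. A gene was called where edgeR's quasi-likelihood test gave a Benjamini-Hochberg adjusted p under 0.1, the adjustment running over the whole table. That made 4 of the 9 genes higher, beside 23.1% of all genes, and 1 of the 9 lower, beside 23.9%. The study's methods add a minimum of 1 on the absolute log2 fold change. With it Mbp was higher, beside 4.37% of all genes, and 0 were lower, beside 3.15%. Mbp passed that minimum narrowly, at 1.004, and was below 1 in some alternative fits and above it in others. Without that minimum, Pdgfra was the 1 lower gene in both edgeR and DESeq2.

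Mbp encodes myelin basic protein, which holds the cytoplasmic faces of compact myelin together (GRCm39 chromosome 18, 82493207 to 82603763, 7 exons in the canonical transcript). It measured 7427, 7053 and 7828 CPM in the LAG-3+/+ libraries and 18068, 14492 and 12187 CPM in the LAG-3-/- libraries. The groups did not overlap, and the LAG-3-/- libraries were more spread out among themselves than the LAG-3+/+ libraries. The log2 fold change was 1.004 ± 0.19 (SE, n = 3 per group; adjusted p = 0.00206), a 2.01-fold difference. Mbp alone took 0.777% of all counts in LAG-3+/+ cord and 1.41% in LAG-3-/- cord.

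Mobp, which also encodes a protein of compact myelin (chromosome 9, 119973770 to 120011273, 4 exons), followed the same order. Its values were 1667, 1602 and 1825 CPM in LAG-3+/+ cord and 3505, 3086 and 2247 CPM in LAG-3-/- cord. The lowest LAG-3-/- library lay 1.23-fold above the highest LAG-3+/+ library, and the log2 fold change was 0.79 ± 0.18 (SE; adjusted p = 0.00488).

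**Figure D1:**
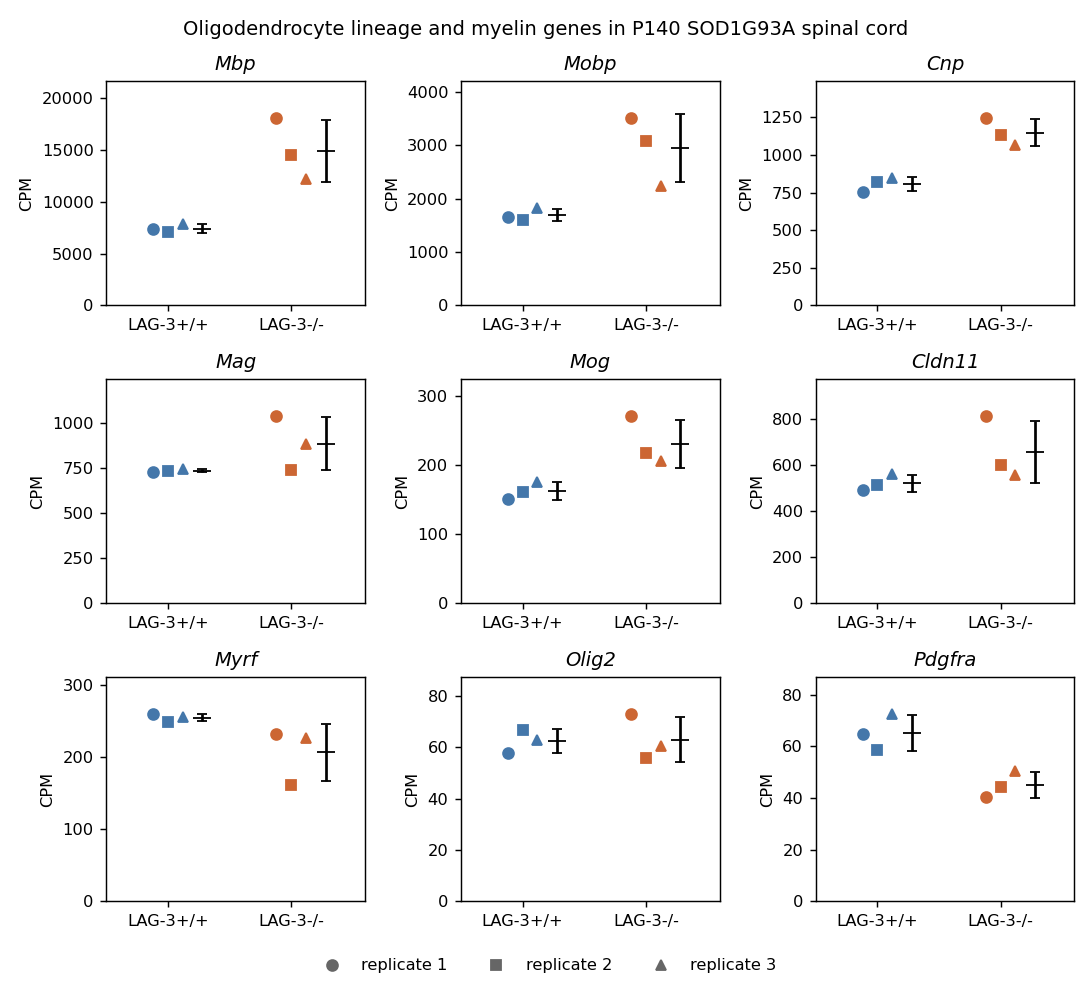
Normalized level of each of the 9 genes in CPM (each vertical axis starts at 0) in the 6 cord libraries, with 1 symbol per library and the mean ± SD of each group beside it. The LAG-3-/- libraries of Mbp, Mobp, Cnp and Mog all sit above the LAG-3+/+ libraries, those of Myrf and Pdgfra sit below, and those of Mag, Cldn11 and Olig2 overlap.

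Cnp, Mag and Mog belong to the parts of myelin outside the compact layers. Cnp encodes an enzyme of the cytoplasm-filled channels of the sheath (chromosome 11, 100465730 to 100482936, 4 exons). It measured 753, 818 and 849 CPM in LAG-3+/+ cord and 1243, 1134 and 1067 CPM in LAG-3-/- cord. The groups did not overlap, with a log2 fold change of 0.51 ± 0.13 (SE; adjusted p = 0.00972). Mog encodes a glycoprotein of the outermost myelin surface (chromosome 17, 37321521 to 37334350, 8 exons). It measured 151, 162 and 176 CPM in LAG-3+/+ cord and 271, 217 and 206 CPM in LAG-3-/- cord, again without overlap, and the log2 fold change was 0.51 ± 0.13 (SE; adjusted p = 0.0106).

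Mag and Cldn11 did not pass the test. Mag encodes the adhesion glycoprotein that faces the axon (chromosome 7, 30598464 to 30614474, 11 exons), and its LAG-3+/+ libraries lay close together at 729, 732 and 744 CPM. The LAG-3-/- libraries were at 1035, 738 and 880 CPM, so replicate 2 fell inside the LAG-3+/+ range. The log2 fold change was 0.27, with a 95% interval from -0.05 to 0.58 (adjusted p = 0.166). Cldn11 encodes the claudin of the tight junctions between myelin layers (chromosome 3, 31203900 to 31218495, 4 exons). It was measured at 490, 513 and 560 CPM in LAG-3+/+ cord and at 810, 601 and 558 CPM in LAG-3-/- cord. Here replicate 3 fell inside the LAG-3+/+ range, and the log2 fold change was 0.33, with an interval from -0.003 to 0.67 (adjusted p = 0.108).

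Neither transcription factor of the lineage among the 9 genes passed the test. Myrf (chromosome 19, 10185634 to 10218161, 27 exons) measured 259, 249 and 255 CPM in LAG-3+/+ cord and 232, 161 and 226 CPM in LAG-3-/- cord. All 3 LAG-3-/- libraries were below all 3 LAG-3+/+ libraries, but the log2 fold change of -0.30 had an interval from -0.61 to 0.01 and was not called (adjusted p = 0.119). Olig2 (chromosome 16, 91019435 to 91025567, 2 exons) measured 57.7, 66.9 and 62.8 CPM in LAG-3+/+ cord and 72.8, 55.8 and 60.4 CPM in LAG-3-/- cord. The groups overlapped, with a log2 fold change of 0.01 and an interval from -0.25 to 0.27 (adjusted p = 0.954).

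Pdgfra, the receptor that marks progenitors (chromosome 5, 75311994 to 75358876, 23 exons), moved the other way. It measured 64.8, 58.7 and 72.4 CPM in LAG-3+/+ cord and 40.6, 44.2 and 50.4 CPM in LAG-3-/- cord, without overlap. Counts in bulk cord do not show which cells made these transcripts. The log2 fold change was -0.54 ± 0.12 (SE; adjusted p = 0.00445). By ranges alone, 4 of the 9 genes had all LAG-3-/- libraries above all LAG-3+/+ libraries, beside 25.5% of all genes tested, and 2 had them below, beside 26.1%.

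Per kilobase of canonical transcript, the levels of the 9 genes in LAG-3+/+ cord spanned from 3450 ± 180 CPM per kilobase for Mbp (SD, n = 3), the 10th highest of all genes tested, to 9.90 ± 1.04 CPM per kilobase for Pdgfra. Between them came Mobp at 1084 ± 73.1, Mag at 366 ± 3.74, Cnp at 342 ± 20.9, Cldn11 at 240 ± 16.6, Mog at 86.7 ± 6.79, Myrf at 44.4 ± 0.884 and Olig2 at 24.2 ± 1.79 CPM per kilobase. Mag and Cnp were the closest neighbours, about 1.2 SD of Cnp apart, and every other pair of neighbours in this order differed by several SD. In LAG-3-/- cord Cnp stood at 487 ± 37.7 and Mag at 441 ± 74.0 CPM per kilobase, which did not differ beyond their spread. All 9 genes, from progenitor receptor to compact myelin, were detected in every library of the tissue that the labels name.

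Across the 6 libraries the mature genes varied together. Over the 15 pairs of the 6 mature myelin genes, Pearson's r of log2 CPM ran from 0.68 for Mag and Mobp to 0.98 for Mbp and Mobp, and r of each with Pdgfra ran from -0.93 to -0.68. These are descriptions over 6 libraries that share the genotype difference. Genes outside the lists whose levels followed the mean of the 6 mature genes most closely were Eif4a3 (r = 0.999), Tspan31 (r = 0.997), Shisa4, Cst3 and Gstp1 (each r = 0.996). Such a likeness was common: 1609 of the 10642 genes with a mean of at least 10 CPM had an r of 0.9 or more.

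The genotype difference in cord depended on transcript length across the whole table. Over 17695 genes with an annotated canonical transcript, Pearson's r between the log2 fold change and log2 length was -0.43 and Spearman's rho was -0.56, as a description across genes, which are not independent. The median log2 fold change was 0.56 for transcripts under 1000 bases, 0.42 from 1000 to 2000, 0.16 from 2000 to 3000, -0.10 from 3000 to 5000 and -0.41 over 5000 bases. The 6 mature genes have canonical transcripts of 1566 (Mobp) to 2357 bases (Cnp), Olig2 has 2579, and the pair with values below 0, Myrf and Pdgfra, have 5728 and 6594 bases. Myrf lay 0.11 above and Pdgfra 0.12 below the median of their length class, on the log2 scale, whereas Mbp lay 0.84 above that of its own.

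**Figure D2:**
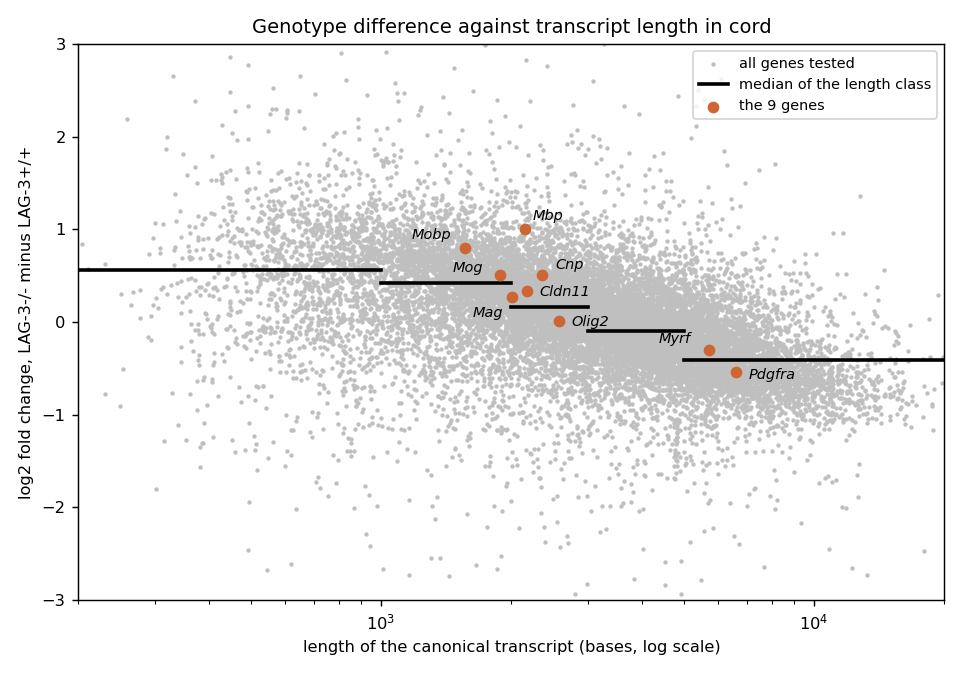
Log2 fold change (LAG-3-/- minus LAG-3+/+) of each gene tested in cord against the length of its canonical transcript (log scale, bases), with black lines for the median of each length class and orange points for the 9 genes. Values beyond 3 in either direction are not drawn. The medians fall from 0.56 for the shortest to -0.41 for the longest class, and Mbp at 1.004 stands further from its class median than the other 8 genes.

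A fit with an offset that removed a smooth dependence on length and GC content in each library called 2 of the 9 genes higher, Mbp and Mobp, beside 14% of all genes, and 0 lower, beside 11.8%. At an unadjusted p under 0.05 in that edgeR fit, 3 were higher (Mbp, Mobp and Mog) and 1, Olig2, was lower. Mbp was at 0.73 ± 0.19 (SE; adjusted p = 0.0211) and Mobp at 0.45 ± 0.16 (adjusted p = 0.0799). Mog was at 0.30 (adjusted p = 0.107), Cnp at 0.25 (adjusted p = 0.197) and Pdgfra at -0.11 (adjusted p = 0.488), so the call of each was lost. Mag changed sign, to -0.11, and Olig2 to -0.27. Whether the dependence on length came from the libraries or from the tissue was not tested.

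The libraries also differed in ways that the genotype does not name. LAG-3-/- replicate 2 held transcripts of peripheral nerve and muscle: Prx, which encodes periaxin of peripheral myelin, stood at 203 CPM there and at most 1.54 CPM in the other 5 libraries, and Acta1 of skeletal muscle stood at 290 CPM. The summed level of the 12 Schwann cell markers was 2120 CPM in that library and 169 to 216 CPM in the others. Schwann cells also express Mbp, Mag and Cnp. In replicate 2 Mbp was the middle value of the 3 LAG-3-/- libraries and Mag the lowest. Without that library the same 5 genes were called, with Mbp at 1.02 and Pdgfra at -0.52, and Mag was called as well, at 0.38 (adjusted p = 0.0811). That made 5 of the 9 higher, beside 18.8% of all genes in the same fit, and 1 lower, beside 19.9%. With both this library left out and the length and GC offset, Mbp alone was called, at 0.75 (adjusted p = 0.0481), beside 9.54% of all genes higher and 6.46% lower. The combined fit was chosen after seeing the data.

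**Figure D3:**
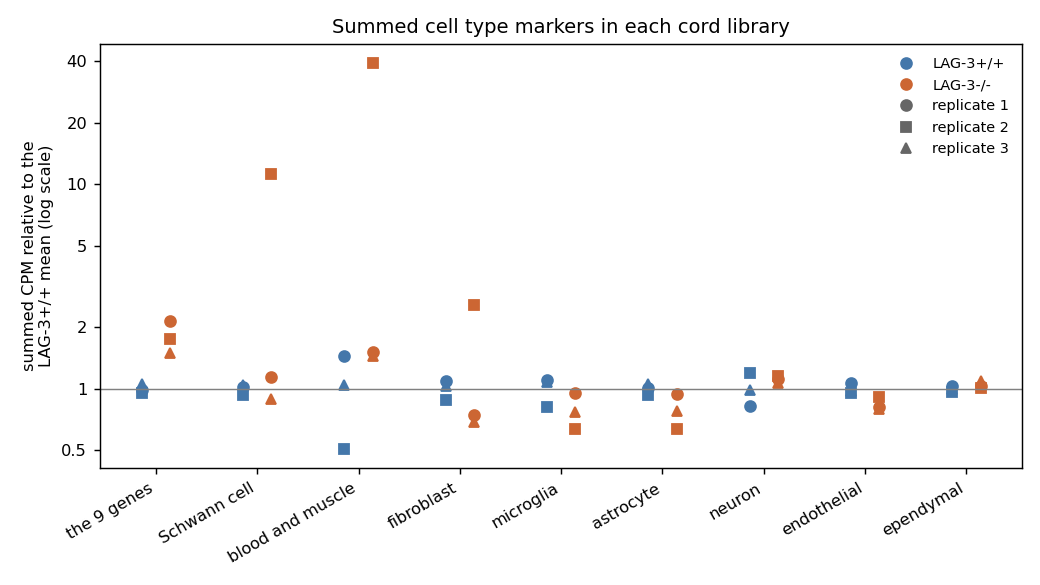
Summed CPM of the 9 genes and of 8 lists of markers of other cell types in each cord library, relative to the mean of the LAG-3+/+ libraries (log scale), with 1 symbol per library. LAG-3-/- replicate 2 stands apart in Schwann cell (2120 CPM), blood and muscle (854 CPM) and fibroblast markers (560 CPM), while the sum of the 9 genes, of which Mbp is the largest part, is higher in all 3 LAG-3-/- libraries.

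Markers of other cell types and RNA measures are given here as counts of genes called, to be read against the 23.1% of all genes that were higher and the 23.9% that were lower. Under the length and GC offset these shares were 14% and 11.8%, and with Xist as a covariate 19.1% and 20.7%. They were 18.8% and 19.9% without LAG-3-/- replicate 2. The summed astrocyte markers were 15799 to 17713 CPM in LAG-3+/+ cord and 10741 to 15926 CPM in LAG-3-/- cord, with 2 of 11 higher and 5 lower, and with 1 higher and 2 lower under the length and GC offset. The summed microglial markers were 2428 to 3310 CPM and 1899 to 2853 CPM, with 1 of 14 higher (Tmem119) and 5 lower, among them Itgam at -0.89. Of these 14, 0 were higher and 8 lower with the offset, against 14% and 11.8% of all genes, and 2 were higher and 1 lower with Xist as a covariate. Neuronal markers summed to 4878 to 7051 CPM and 6332 to 6824 CPM, with 2 of 16 higher and 2 lower, both shares below those of all genes, and with 2 higher and 6 lower with Xist as a covariate. Of the 8 endothelial markers 2 were higher and 4 lower, and with the offset 0 were higher and 1 lower, with 2 of the 6 calls at the opposite sign. Of the 6 ependymal markers 1 was higher, and with the offset 0 were higher and 1 lower. Of the 9 fibroblast markers 1 was lower (Fmod), both without and with the offset. Of the 6 blood and muscle markers tested 1 was higher without the offset (Alas2), and 0 were called with it. Of the 8 Schwann cell markers tested, 0 were called by edgeR or DESeq2 and 0 had an unadjusted p under 0.05 in edgeR, Prx and Pmp22 having the smallest (adjusted p = 0.165 and 0.214). Their median of 1.22 rested on LAG-3-/- replicate 2, without which 4 of the 8 were lower and the median was -0.50. Mitochondrial transcripts took 4.60% to 6.78% of counts in LAG-3+/+ cord and 7.99% to 14.8% in LAG-3-/- cord, and the 6 libraries had the same order by this share as by Mbp and by Mobp. Their part in the result was not tested.

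The sexes listed for the animals also differed from the transcripts. Xist was above 10 CPM in 4 libraries, all 3 LAG-3+/+ and LAG-3-/- replicate 1, while LAG-3-/- replicates 2 and 3 had Ddx3y at 69.8 and 60.8 CPM. LAG-3+/+ replicates 1 and 2, listed as male, went against their listing. Among the LAG-3-/- libraries, replicate 1 had the highest level of every mature myelin gene (Mbp at 18068 CPM) and the lowest of Pdgfra (40.6 CPM). With the presence of Xist as a covariate, a fit chosen after seeing the data in which LAG-3-/- replicate 1 alone carries the genotype difference, 6 of the 9 genes were higher, beside 19.1% of all genes, and 1 was lower, beside 20.7%. Mag was then at 0.49 (adjusted p = 0.0515), Cldn11 at 0.64 (adjusted p = 0.0124) and Mbp at 1.28 (adjusted p = 0.0016), and Pdgfra was lower at -0.69 (adjusted p = 0.00658). With the length and GC offset as well, 3 of the 9 were higher (Mbp, Mobp and Mog), beside 11.3% of all genes, and 0 were lower, beside 6.6%.

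**Figure D4:**
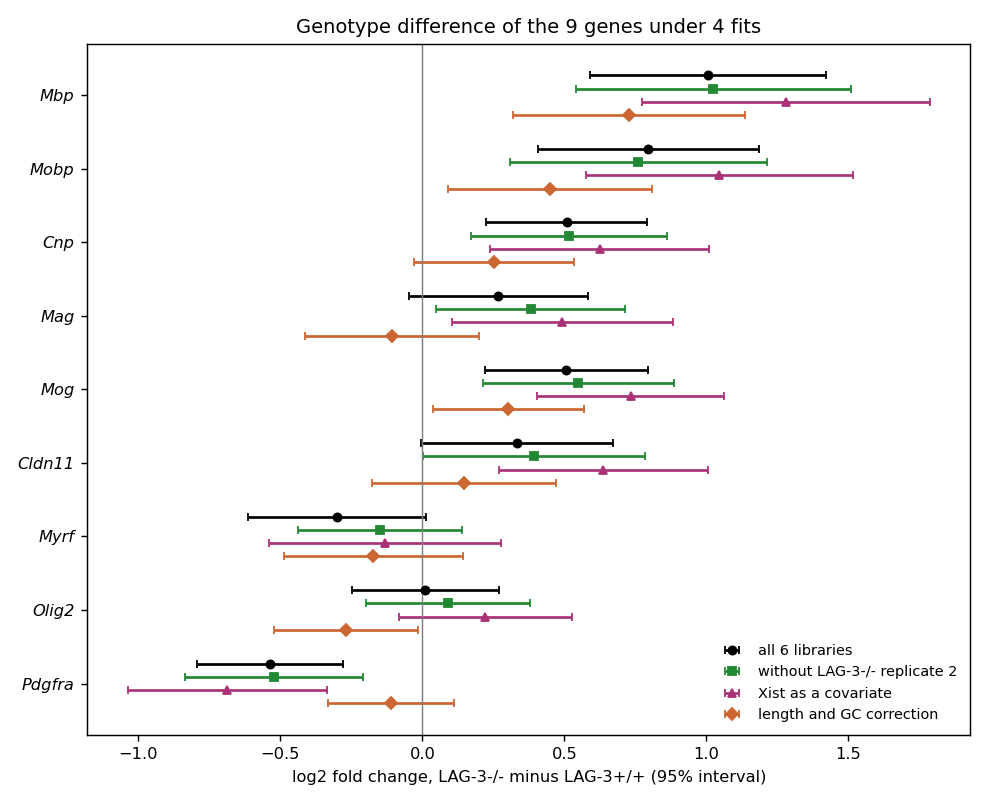
Log2 fold change (LAG-3-/- minus LAG-3+/+) of the 9 genes with 95% intervals under 4 fits: all 6 libraries, without LAG-3-/- replicate 2, with Xist as a covariate, and with the length and GC correction. Mbp, Mobp and Mog lie above 0 with intervals that leave 0 out in all 4 fits, whereas Pdgfra moves from -0.54 to -0.11 under the correction.

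The other myelin genes, 38 listed and 37 tested, were more often higher than lower. Of these, 16 rose, 4 fell and 17 did not pass, with a median log2 fold change of 0.25 beside 0.00 over all genes, of which 23.1% rose and 23.9% fell. Hapln2, a link protein at nodes of Ranvier, went from 81.2 ± 4.15 to 135 ± 19.0 CPM (SD, n = 3 each; log2 fold change 0.73, adjusted p = 0.00104 in edgeR). On the same scale Gal3st1, the enzyme that makes sulfatide, rose by 0.73, Prr18 by 0.71 and Qdpr by 0.77. Nfasc, a gene with a long transcript that encodes an adhesion protein of the axon-myelin junction, fell from 754 ± 44.1 to 426 ± 66.5 CPM (log2 fold change -0.82, adjusted p = 0.00129 in edgeR). Counts per gene in bulk cord do not tell the transcripts of Nfasc, or the cells that made them, apart. With the length and GC offset 12 of the 37 genes were higher and 2 lower, beside 14% and 11.8% of all genes, and the median was 0.23, with Hapln2 at 0.71 and Gal3st1 at 0.73. Without LAG-3-/- replicate 2, which holds peripheral nerve transcripts, 16 were higher and 2 lower, beside 18.8% and 19.9% of all genes. With Xist as a covariate 19 were higher and 1 lower, beside 19.1% and 20.7%. With the offset, leaving that library out gave 10 higher and 1 lower, beside 9.54% and 6.46%. Adding Xist to the offset gave 19 higher and 1 lower, beside 11.3% and 6.6%.

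Among 20 progenitor genes, 9 fell, 1 rose and 10 did not pass, with a median of -0.27, beside 23.9% of all genes that fell and 23.1% that rose. Xylt1, which starts the sugar chains of proteoglycans, fell by 1.24 on the log2 scale, from 57.9 ± 4.67 to 24.5 ± 3.25 CPM (SD, n = 3 each). Tnr, a matrix glycoprotein, changed by -1.16 and Ptprz1, a receptor phosphatase, by -0.93. Sox5 and Sox6, which hold progenitors back from differentiation, changed by -0.96 and -0.98, and Vcan, a proteoglycan, by -0.85. Cspg4, the NG2 proteoglycan, which was named after its value was seen, was at -0.24 and not called (adjusted p = 0.165). With the length and GC offset 9 of the 20 were lower, beside 11.8% of all genes, and C1ql1, the gene that had risen, was at 0.21 and not called. Without LAG-3-/- replicate 2 the counts were again 9 lower and 1 higher, beside 19.9% and 18.8% of all genes. With Xist as a covariate they were the same, beside 20.7% and 19.1%. With the offset they were 6 lower and 0 higher without that library (median -0.20), beside 6.46% and 9.54%. With the offset and Xist as a covariate they were 3 lower and 0 higher (median -0.09), beside 6.6% and 11.3%. Of the 10 genes called without the offset, 8 were called with it in the same direction. The median transcript length of this list was 5636 bases, against 2169 bases for the 9 genes.

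**Figure D5:**
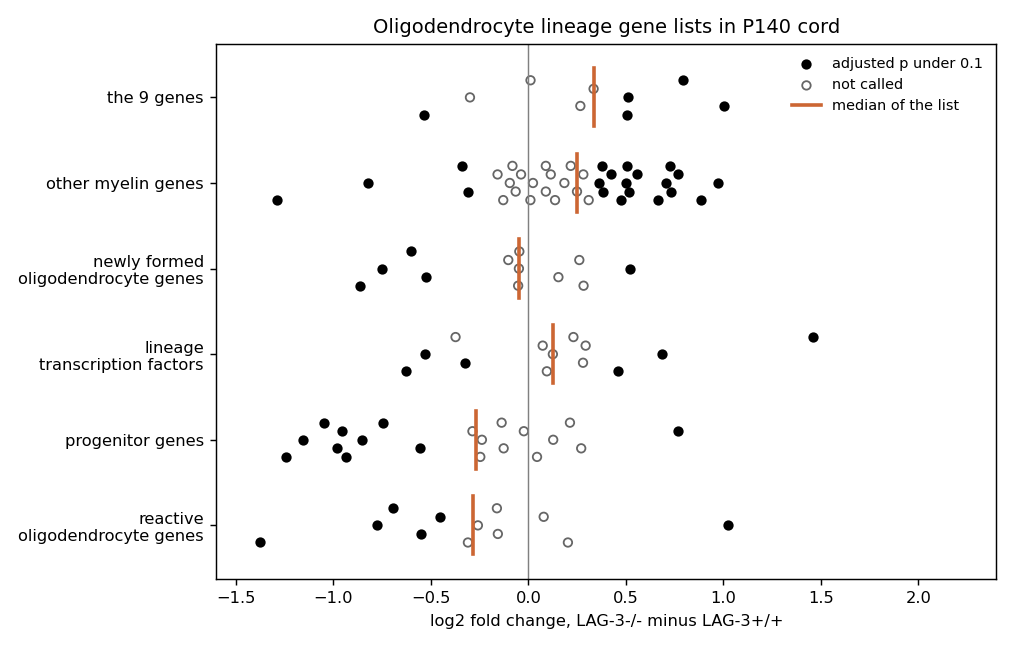
Log2 fold change (LAG-3-/- minus LAG-3+/+) of every gene tested in the 9 genes and 5 lists of the oligodendrocyte lineage, with filled points for genes at an adjusted p under 0.1 and an orange line for the median of each list (points are shifted vertically only to separate them). The medians are 0.25 for other myelin genes and -0.27 for progenitor genes.

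Genes of newly formed oligodendrocytes were mixed, with 1 of 12 higher, 4 lower and a median of -0.05, beside 23.1% and 23.9% of all genes. With the length and GC offset 2 were higher and 3 lower (median 0.07), beside 14% and 11.8% of all genes. With the offset and Xist as a covariate 3 were higher and 0 lower (median 0.10), beside 11.3% and 6.6%. Bcas1, which marks cells that are starting to make myelin, rose from 491 ± 20.1 to 706 ± 138 CPM (log2 fold change 0.52, adjusted p = 0.0178 in edgeR). Frmd4a changed by -0.75, Itpr2, a calcium channel of the endoplasmic reticulum, by -0.86, Cnksr3 by -0.52 and Rras2 by -0.60. Of the 13 further transcription factors of the lineage, 3 were higher, 3 lower and the median was 0.13. Both counts are near the shares of all genes and so are no result about this list. Olig1, the partner of Olig2 on the same chromosome, rose by 0.46 and Nkx6-2, a factor of maturing oligodendrocytes, by 0.68. Hes5, a Notch target, rose by 1.46 from a low level of 1.22 ± 0.407 CPM. St18 changed by -0.63, Zeb2 by -0.53 and Zfp536 by -0.33. With the length and GC offset 1 of these 6 calls, that of Hes5, was kept. In that fit 2 of the 13 were higher and 0 lower (median 0.03), beside 14% and 11.8% of all genes. Xist as a covariate gave 5 higher and 2 lower, beside 19.1% and 20.7%. Without LAG-3-/- replicate 2, 5 were higher and 3 lower, beside 18.8% and 19.9%.

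Genes reported in reactive, disease-associated oligodendrocytes were lower more often than higher, with 5 of 12 lower, 1 higher and a median of -0.28, beside 23.9% and 23.1% of all genes. Serpina3n, a protease inhibitor, fell from 1173 ± 251 to 453 ± 153 CPM (log2 fold change -1.37, adjusted p = 0.0044 in edgeR). Il33 changed by -0.70, Stat3 by -0.55, Socs3 by -0.78 and C4b, a complement component, by -0.45. Astrocytes and microglia also express several of these genes. With the length and GC offset 8 of the 12 were lower and 1 higher, beside 11.8% and 14% of all genes, with a median of -0.46. Without LAG-3-/- replicate 2, 3 were lower and 2 higher, beside 19.9% and 18.8% of all genes. With Xist as a covariate 3 were lower and 3 higher, beside 20.7% and 19.1%. With the offset and without that library 6 were lower and 1 higher, beside 6.46% and 9.54%. With the offset and Xist 0 were lower and 1 higher (median -0.34), beside 6.6% and 11.3%. The count of lower genes thus depended on these choices.

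In the 26 libraries of sorted microglia 5 of the 9 genes were at or near 0, whereas Mbp, Cnp, Mag and Mobp were detected at levels below those in cord. Olig2 had 0 counts in all 26 libraries and Cldn11 at most 1 count. Mog had counts in 1 library, Pdgfra in 4, and Myrf at most 9 counts. Mbp was detected in all 26, at 17.6 to 92.3 CPM with a median of 40.7, which the LAG-3+/+ cord mean exceeded 183-fold. Cnp had a median of 66.4 CPM, exceeded 12.2-fold in cord, Mag 18.9 CPM and Mobp 1.81 CPM. The microglial and cord tables were normalized separately and made with different library kits per the study's methods, so these ratios only describe the size of the gap.

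In microglia sorted from the same 2 genotypes at P120 and P140, with 3 libraries per group, Mbp, Mag, Mobp and Cnp had enough counts to be tested. None of the 4 was called at P140, beside 10.2% of 18669 genes, at P120, beside 0.0107%, or for the change of the genotype difference between stages, beside 0.171%. In the main edgeR fit 0 of the 4 had an unadjusted p under 0.05 in any of the 3 contrasts. At P140 1 of the 4 did in edgeR with RLE size factors. Without a filter on low counts 2 of the 7 genes then tested did. In DESeq2 0 were called, and 1 had an unadjusted p under 0.05 at P140 and 1 in the stage contrast. At P140 the log2 fold change was -0.45 for Mbp, with an interval from -1.29 to 0.39, and -0.75 for Mag, with an interval from -1.57 to 0.07. The intervals of Mobp and Cnp ran from -4.81 to 3.54 and from -0.86 to 0.75. Whether the genotype difference itself differed between microglia and cord was not tested.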

How the data were processed

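Total RNA of 6 lumbar cords was sequenced. The library kit differs between the study's methods (a directional kit) and the labels (a kit for sorted cells). The authors deposited estimated counts per Ensembl gene, not normalized, made with Trim Galore 0.6.7, Salmon 1.9.0 and tximport under R 4.2.1 on GRCm39. Totals ran from 19429873 to 26994340 counts per cord library. Here the estimated counts were rounded and fitted in edgeR 4.0.16 under R 4.3.3 (filterByExpr with a minimum count of 10 and total of 15, TMM factors, robust quasi-likelihood test, Benjamini-Hochberg adjustment), with DESeq2 1.42.0 as an alternative. CPM used TMM-scaled totals. The length and GC offset was a spline with 5 degrees of freedom per library. Symbols, lengths and positions came from GENCODE vM39 for GRCm39, in which 71 identifiers (0.0145% of counts) were absent. One listed gene, Tmem88b, was not matched. Libraries were grouped by their labels, and p-values measure only the spread between these 3 libraries per group. No replicate pair agreed within sampling noise.

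The 9 genes, the lists and the tests were chosen with earlier results of these data known, and the study's groups were used as labelled. Named from each list were up to 6 called genes with the smallest p, except that a few genes are not reported here. Scripts were tested on simulated data.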

Additional observations from a re-analysis of the deposited data

How the results depend on the processing

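Mbp, Mobp, Cnp, Mog and Pdgfra kept their direction under every alternative run. They kept their call under DESeq2, RLE size factors, library totals, both count filters, the listed sex and each library left out. The listed sex went against Xist in LAG-3+/+ replicates 1 and 2, so that covariate cannot show how far the results depend on sex. The fit with Xist as a covariate cannot show it either, as LAG-3-/- replicate 1 alone carries its genotype difference. With a minimum log2 fold change of 1, 1 gene was higher and 0 lower in the main fit, of 773 and 558 among all genes. That gene, Mbp, was at 1.004 there and below 1 in some of the alternatives. DESeq2 called Cldn11 (0.34, adjusted p = 0.0596), as did the listed sex (0.32, adjusted p = 0.0765). Library totals without TMM factors, which moved the median of all genes to -0.13, called 2 genes lower, Myrf at -0.43 (adjusted p = 0.0509) and Pdgfra at -0.66, and Olig2, not called, was at -0.12. In that fit 5316 of all 17702 genes were lower and 2928 higher. Without a filter on low counts 2 were lower, Myrf at -0.34 and Pdgfra at -0.57, and Olig2, not called, was at -0.025. Among the 35412 genes of that fit 4528 were lower and 3755 higher. Replicate numbers did not pair the libraries (r of deviations from -0.03 to 0.02). The replicate block called 2 genes lower, Myrf at -0.32 (adjusted p = 0.0774) and Pdgfra at -0.54. It called 8315 of all 17702 genes, 4296 of them lower and 4019 higher.

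The length and GC correction called 2 higher and 0 lower, of 2479 and 2083 among all genes, with Mag at -0.11, Mog 0.30, Cnp 0.25, Olig2 -0.27 and Pdgfra -0.11. Xist as a covariate, added after seeing the data, gave Mag 0.49 and Cldn11 0.64. The correction without LAG-3-/- replicate 2, also added later, called 1 higher and 0 lower (1715 and 1162 among all genes), with Mog 0.36, Mobp 0.42, Cnp 0.26, Olig2 -0.19 and Pdgfra -0.087. The correction with Xist as a covariate, added later too, called 3 higher, Mbp 0.99, Mobp 0.66 and Mog 0.50, and 0 lower (1996 higher and 1167 lower among all genes), with Cnp 0.37, Myrf 0.10, Olig2 -0.042 and Pdgfra -0.15. The cause of these shifts was not tested.

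With each library left out in turn, genes called higher ran from 4 to 5 and lower from 1 to 2, and among all genes from 3176 to 4015 and from 3209 to 4467. Values ran from 0.84 to 1.11 for Mbp, 0.65 to 0.94 for Mobp, 0.45 to 0.54 for Cnp, 0.37 to 0.57 for Mog, 0.14 to 0.38 for Mag, 0.15 to 0.42 for Cldn11, -0.39 to -0.15 for Myrf, -0.11 to 0.092 for Olig2 and -0.64 to -0.46 for Pdgfra. Myrf was called without LAG-3-/- replicate 1 (-0.39, adjusted p = 0.0605) or replicate 3 (-0.39, adjusted p = 0.0841), Mag without replicate 2 (0.38) and Cldn11 without replicate 3 (0.42), and Olig2 was below 0 without LAG-3+/+ replicate 1 (-0.05) or LAG-3-/- replicate 1 (-0.11). In microglia 0 of the genes were called under every alternative.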
